A study of Sicyos edulis with 9 samples.

Results

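This section describes unigenes of stored chayote fruit whose level dipped at 15 days of storage and was back up at 30 days. They were chosen by their values. Every library of the 15-day stage had to lie below every library of the other stages, the mean over 9 libraries had to be under 800 FPKM, and the unigene could not be in the study's lists of flavonoid genes and factors grouped by positive or negative regulation, or of transcription factors. FPKM is a fragment count scaled to the length of the unigene and to the mapped fragments of the library. Of the 57814 unigenes, 3180 met the condition on the libraries. Among these, 8 were left out for their mean and 12 for being on the lists, and the remaining 3160 were ranked by the smaller of the fall and the rise between stage means of log2(FPKM + 1). The first 200 are the dip unigenes.

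Chayote (Sicyos edulis) is a vine of the gourd family grown for its fruit. The fruits were wild type (WT), grown in 1 experimental field, and sampled at the optimal harvest stage (S1), 15 days after storage (S2) and 30 days after storage (S3), with 3 biological replicates in each stage. Neither the number of fruits per library nor the part of the fruit taken is stated in the sources used here, and the methods give a cool store where the design text gives room temperature. The unigenes carry Trinity assembly identifiers without annotation, so the tissue could not be checked against marker genes and no sequence is shown.

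Fruit goes on respiring and transcribing its genes after harvest, and storage changes its sugars, cell walls and phenolic compounds. Flavonoids, a class of phenolics, are built from phenylalanine through cinnamic acids. The 4-coumarate-CoA ligases (4CL) activate these acids as CoA esters, further enzymes build the flavonoid skeleton, and UDP-glycosyltransferases (UGT) transfer sugars from UDP-sugars onto flavonoids and many other small molecules, which makes them more soluble. Isoflavone reductase (IFR) acts in isoflavonoid synthesis, and its wider protein family includes other reductases. Names were available only for structural genes of this pathway, of which 13 were dip unigenes: 11 UGTs, Se4CL6 and SeIFR3. The other 187 dip unigenes have no name here.

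The libraries added up to between 801066 and 914583 FPKM over all unigenes. The paper lists sequenced and mapped reads for each library, but reads per unigene were not available here, so no counting interval could be set. Relative depth was inferred from the spacing of low values, with S1 replicate 2 set to 1. It ran from 0.70 in S3 replicate 2 to 1.29 in S2 replicate 1, a wider range than the mapped reads give. S1 replicate 1, at 0.79, stood apart from the other S1 libraries in the dip unigenes, as described below, and results that use the S1 stage are given with and without it.

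In S2 the dip unigenes together took a small share of each library. Their summed level was 1428, 1480.0 and 1430.2 FPKM in the S2 libraries, against 19516, 8696 and 7707 FPKM in S1 replicates 1, 2 and 3 and 17593, 23762 and 24057 FPKM in S3. As a share of each library's total, the S1 sums came to 2.25%, 0.981% and 0.872%, the S2 sums to 0.157%, 0.164% and 0.156%, and the S3 sums to 2.20%, 2.96% and 2.89%. In these sums S1 replicate 1 was thus at the S3 level, while S1 replicates 2 and 3 lay between S2 and S3. Singly, S1 replicate 1 was above every S3 library in 85 of the 200 and below every one in 61. These counts were 34 and 119 for S1 replicate 2, and 25 and 133 for S1 replicate 3. They were not counted over all tested unigenes, so they only describe the 200. The 13 with a name took 0.148%, 0.134% and 0.134% in S1, more than the 0.086%, 0.110% and 0.110% in S3. The S2 libraries differed little from each other.

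Single dip unigenes ranged widely in level. Their stage means were 2.06 to 563 FPKM in S1 (median 29.1), 0 to 123 FPKM in S2 (median 2.28) and 2.48 to 2115 FPKM in S3 (median 45.8). In S2, 57 were under 1 FPKM in every library and 7 of these were listed at 0 in all, whereas 38 still had a mean of at least 10 FPKM. The smaller step on the log2(FPKM + 1) scale was 1.57 to 7.33 (median 2.00), above 2 in 100 dip unigenes and above 3 in 33. In 144 of 200 it was the fall, so the rise after day 15 was usually the larger step. All 200 passed the filter for testing, at least 3 libraries with an FPKM of 1 or more, and none of them did so through a single stage.

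**Figure D1:**
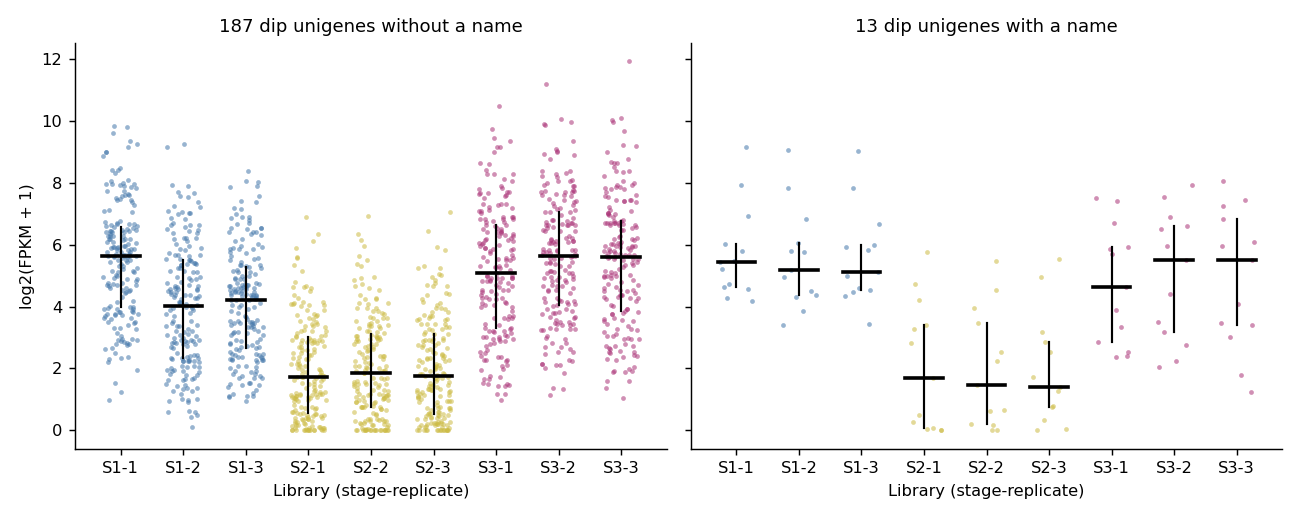
Level of the dip unigenes in each of the 9 libraries, as log2(FPKM + 1) on the vertical axis, for the 187 without a name (left) and the 13 with a name (right). Points are unigenes, thick bars are medians and thin lines span the quartiles. All S2 libraries are low in both panels. S1 replicate 1 stands above the other S1 libraries in the left panel, with a median of 48.6 FPKM against 15.1 and 17.7, and less so in the right panel, with 42.2 against 35.0 and 33.4 FPKM.

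As the rule chose on both steps, calls in them only describe the selection. With limma on log2(FPKM + 1), at a Benjamini-Hochberg adjusted p under 0.05, 173 dip unigenes were called lower in S2 than in S1, where 10.7% of the 30201 tested unigenes were. From S2 to S3, 197 were called higher, against 23.3% of all tested, and 170 had both calls, against 3.86%. The 170 became 113 without S2 replicate 1. The separation of the libraries itself was met by 9.69% of tested unigenes and by 5.50% of all.

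At the lower limit of the selection, the values run on without a gap. The last dip unigenes, TRINITY_DN20118_c0_g3 and TRINITY_DN3515_c0_g1, had a smaller step of 1.57, as did the first ones left out, TRINITY_DN9885_c0_g1 and TRINITY_DN13277_c0_g2. TRINITY_DN20118_c0_g3 had 2.84, 1.57 and 1.89 FPKM in S1, 0, 0.08 and 0 in S2, and 0.97, 3.78 and 2.80 in S3. TRINITY_DN3515_c0_g1 had 30.2, 23.0 and 20.4 FPKM in S1, 6.18, 7.98 and 8.45 in S2, and 34.9, 27.9 and 18.9 in S3. The pair shows that the low end holds both scarce and moderately expressed unigenes. Outside, TRINITY_DN9885_c0_g1 had 80.0, 43.7 and 38.3 FPKM in S1, 15.2, 18.5 and 16.1 in S2, and 97.4, 160 and 194 in S3.

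Among the 4 unigenes with the deepest dips, TRINITY_DN765_c0_g1 and SeUGT8 came close to 0 in S2. The S2 means of TRINITY_DN4078_c0_g1 and SeUGT18 were 2.00 and 3.78 FPKM. TRINITY_DN765_c0_g1, which led the ranking, had 514, 125 and 126 FPKM in S1, 0.32, 0.23 and 0.21 in S2, and 159, 333 and 398 in S3. TRINITY_DN4078_c0_g1, the next without a name, had 249, 33.5 and 45.5 FPKM in S1, 2.04, 2.04 and 1.93 in S2, and 144, 153 and 171 in S3. Both were far higher in S1 replicate 1 than in the other S1 libraries, and in both the S2 libraries lay close together. Their stage means in S1 and S3 were 255 ± 224 and 297 ± 124 FPKM for TRINITY_DN765_c0_g1 and 109 ± 121 and 156 ± 14.1 FPKM for TRINITY_DN4078_c0_g1 (SD, n = 3).

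The highest mean levels over the 9 libraries belonged to 3 further unigenes without a name. TRINITY_DN28426_c0_g1 had 109, 129 and 83.4 FPKM in S1, 4.16, 6.92 and 3.20 in S2, and 112, 2333 and 3899 in S3. Its S3 libraries thus disagreed, with replicate 1 at the S1 level and the other two far above it. TRINITY_DN1523_c0_g1 had 356, 149 and 169 FPKM in S1, 19.8, 28.3 and 24.6 in S2, and 1412, 996 and 809.9 in S3. TRINITY_DN10383_c0_g1 had 507, 81.7 and 142 FPKM in S1, 46.0, 44.0 and 30.2 in S2, and 859, 951 and 999.8 in S3. In these last the level at the dip was still 19.8 FPKM or more in every library, and every S3 library was above every S1 library.

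S1 replicate 1 was the highest of the S1 libraries in 180 of the 200 dip unigenes, where it was so in 39.5% of all tested unigenes. It exceeded the mean of S1 replicates 2 and 3 by more than 1 on the log2 scale in 136 of 200 (68.0%), against 8.22% of all tested. The median of this difference was 1.30 over the dip unigenes, 1.37 in those without a name and 0.14 in those with one. Over all tested unigenes it was -0.03, and over the 2725 tested unigenes with the same separation that are no dip unigenes it was 0.18. The selection used the S1 mean, which a high S1 library raises, so these shares carry no test.

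**Figure D2:**
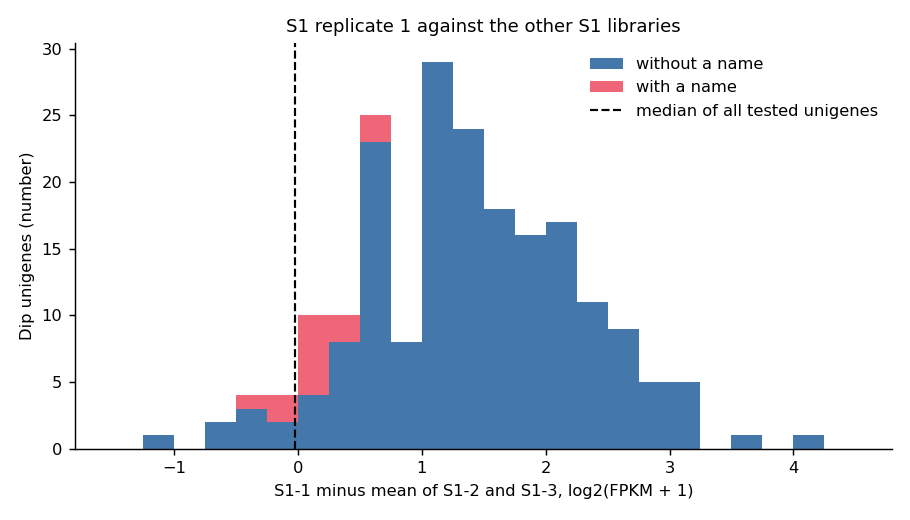
Number of dip unigenes (vertical axis) by the level in S1 replicate 1 minus the mean of S1 replicates 2 and 3 on the log2(FPKM + 1) scale (horizontal axis). Stacked bars separate unigenes with and without a name, and the dashed line is the median of all tested unigenes, -0.03. Most dip unigenes without a name lie to the right of it, at a median of 1.37, and the 13 with a name lie near it, at a median of 0.14.

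The rule set every S1 library above every S2 library, so a fall from each S1 library was fixed in advance. Only its size is described here. The fall to S2 was smaller from S1 replicates 2 and 3 than from S1 replicate 1. Its median was -2.21 on the log2 scale with all S1 libraries, -3.18 from S1 replicate 1 alone, and -1.85 from the mean of S1 replicates 2 and 3, from which 194 of 200 fell by more than 1. Among the 13 with a name these medians were -3.48, -3.83 and -3.31. In 197 of the 200 dip unigenes S1 replicate 1 lay nearer to the S3 mean than to the S2 mean. This was so in 133 for S1 replicate 2 and in 140 for S1 replicate 3. The rule set both stages above S2, and a high S1 library raised the ranked fall, so these counts carry no test. The share among all tested unigenes was not counted. When the rule was applied without S1 replicate 1, 150 of the 200 were selected again, including all 13 with a name.

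The difference of S1 replicate 1 from its group had a counterpart across the whole set of tested unigenes. The 2347 tested unigenes, dip unigenes aside, that exceeded the other S1 libraries in S1 replicate 1 by more than 1 were called higher in S3 than in S2 in 28.4% and lower in 7.12%, where 23.3% and 23.2% of all tested were. Where S1 replicate 2 or 3 was the high library, 3.44% and 2.34% were called higher and 16.3% and 23.9% lower. Across the 30201 tested unigenes, Pearson's r between the deviation of an S1 library from the other S1 libraries and the difference of S3 minus S2 was 0.39 for replicate 1. The 3 deviations sum to 0 in each unigene, so the values of -0.24 and -0.27 for replicates 2 and 3 follow in part from that of replicate 1 and add no separate support, and the shares above are linked in the same way. Unigenes are not independent replicates, and these values carry no p. In bulk fruit tissue, fewer cells of a type and less RNA per cell cannot be told apart.

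Replicates of the same stage also differed in spread between the dip unigenes with and without names. On the log2(FPKM + 1) scale, the median SDs of the S1, S2 and S3 libraries were 0.87, 0.17 and 0.38 for the 187 without a name, and 0.15, 0.27 and 0.46 for the 13 with one. Over all tested unigenes they were 0.30, 0.15 and 0.24. The named unigenes were thus tighter at harvest and wider in storage than the rest. All 46 matched UGTs showed 0.12, 0.27 and 0.29. The part of this spread in the results was not tested.

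Names were reached through the 9 values, since the list of structural genes gives values but no identifiers. Of its 95 genes, 91 matched exactly 1 unigene, 72 of them under the stages of the files and 19 under other stages. All 13 named dip unigenes matched under the same stages. Of the 91, 84 were tested, and S2 held the lowest libraries in 28 of these 84, where it did in 9.69% of all tested unigenes. Of the 28, 13 were dip unigenes. As the list was picked by the study from these same samples, the counts are no independent evidence. By family, 22 of 46 UGTs had the lowest S2 libraries and 11 of them were dip unigenes. For 4CL these counts were 2 and 1 of 15, and for IFR 1 and 1 of 5. Among 14 unigenes of phenylalanine ammonia-lyase, the entry enzyme of the pathway, 2 had the lowest S2 libraries, and among 3 of flavonol synthase 1 had, with no dip unigene in either family. None of the unigenes of cinnamate 4-hydroxylase, chalcone synthase, dihydroflavonol reductase, flavanone 3-hydroxylase or flavone synthase I had its lowest libraries in S2. Each of these families had only 1 or 2 matched unigenes. SeC4H2, SeCHS2, SeDFR and SeF3H are among the 19 matched under other stages, and the stages of the files were used for them.

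SeUGT8 (TRINITY_DN1926_c0_g6) had the deepest dip among the named ones. It had 43.1, 30.0 and 33.4 FPKM in S1, 0, 0 and 0.02 in S2, and 103, 89.7 and 112 in S3. It was thus all but undetected at day 15, and every S3 library was above every S1 library. SeUGT16 (TRINITY_DN1926_c0_g2), a UGT of the same Trinity cluster singled out after its values were seen, ran the opposite way. It had 138, 129 and 153 FPKM in S1, 455, 458 and 509 in S2, and 90.4, 89.4 and 121 in S3. TRINITY_DN1926_c0_g5, another unigene of that cluster, also had its lowest libraries in S2, with a shallower dip. Its values were 22.7, 20.6 and 16.85 FPKM in S1, 10.8, 11.3 and 11.2 in S2, and 20.15, 19.1 and 17.5 in S3. SeUGT18 (TRINITY_DN6658_c0_g2) had 120, 113 and 101 FPKM in S1, 6.0, 3.7 and 1.64 in S2, and 57.6, 118 and 151 in S3. Its S1 libraries agreed closely, while those of S3 spread on either side of them.

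Among the next UGTs, SeUGT14 (TRINITY_DN13691_c0_g2) was listed at 0 in every S2 library. It had 25.7, 21.8 and 30.8 FPKM in S1 and 4.32, 10.4 and 9.98 in S3. SeUGT22 (TRINITY_DN7007_c0_g1) had 64.4, 65.5 and 62.3 FPKM in S1, 9.51, 4.82 and 4.79 in S2, and 60.1, 60.8 and 60.6 in S3. SeUGT5 (TRINITY_DN10934_c0_g1), the most abundant of the 13, had 575, 528 and 519 FPKM in S1, 25.2, 22.2 and 30.3 in S2, and 179.6, 243 and 265 in S3. These 3 returned to different extents, with SeUGT22 close to its harvest level and SeUGT14 and SeUGT5 below it in every S3 library.

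The remaining UGTs had a smaller step of 1.81 to 2.76 on the log2 scale. Their falls to S2 ran from -2.05 in SeUGT24 to -4.34 in SeUGT11. SeUGT19 (TRINITY_DN3276_c0_g2) had 242, 225 and 226 FPKM in S1, 53.4, 43.7 and 45.3 in S2, and 170.5, 183 and 174 in S3. SeUGT24 (TRINITY_DN1644_c1_g1) had 42.2, 54.7 and 59.9 FPKM in S1, 17.5, 14.4 and 6.23 in S2, and 50.5, 96.5 and 66.6 in S3. SeUGT11 (TRINITY_DN7961_c0_g1) had 36.4, 35.0 and 19.3 FPKM in S1, 0.21, 0.56 and 0.74 in S2, and 13.7, 3.10 and 1.36 in S3. SeUGT19 thus stayed at 43.7 FPKM or more throughout, SeUGT24 overlapped between S1 and S3, and SeUGT11 recovered little. SeUGT33 (TRINITY_DN3652_c0_g1) averaged 19.6 ± 1.29, 1.38 ± 0.84 and 15.1 ± 5.65 FPKM in S1, S2 and S3 (SD, n = 3). SeUGT32 (TRINITY_DN15700_c0_g1) averaged 54.6 ± 1.05, 8.97 ± 1.01 and 37.5 ± 11.7 FPKM (SD, n = 3). SeUGT41 (TRINITY_DN3984_c0_g1) averaged 13.4 ± 3.56, 0.297 ± 0.346 and 4.16 ± 1.92 FPKM (SD, n = 3). All 3 had a lower mean in S3 than in S1. Just below the limit stood SeUGT27 (TRINITY_DN2084_c0_g1) and SeUGT23 (TRINITY_DN5924_c0_g1), with smaller steps of 1.53 and 1.52.

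Se4CL6 and SeIFR3 came from other steps of the pathway. Se4CL6 (TRINITY_DN16556_c0_g3) had 22.7, 18.6 and 22.4 FPKM in S1, 0.42, 1.75 and 2.30 in S2, and 4.79, 8.06 and 9.49 in S3. SeIFR3 (TRINITY_DN35909_c0_g1) had 23.6, 9.59 and 23.2 FPKM in S1, 0.05, 0.12 and 0.25 in S2, and 4.20, 5.76 and 7.05 in S3. Both were under their S1 range in all S3 libraries, so the recovery was partial in each.

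**Figure D3:**
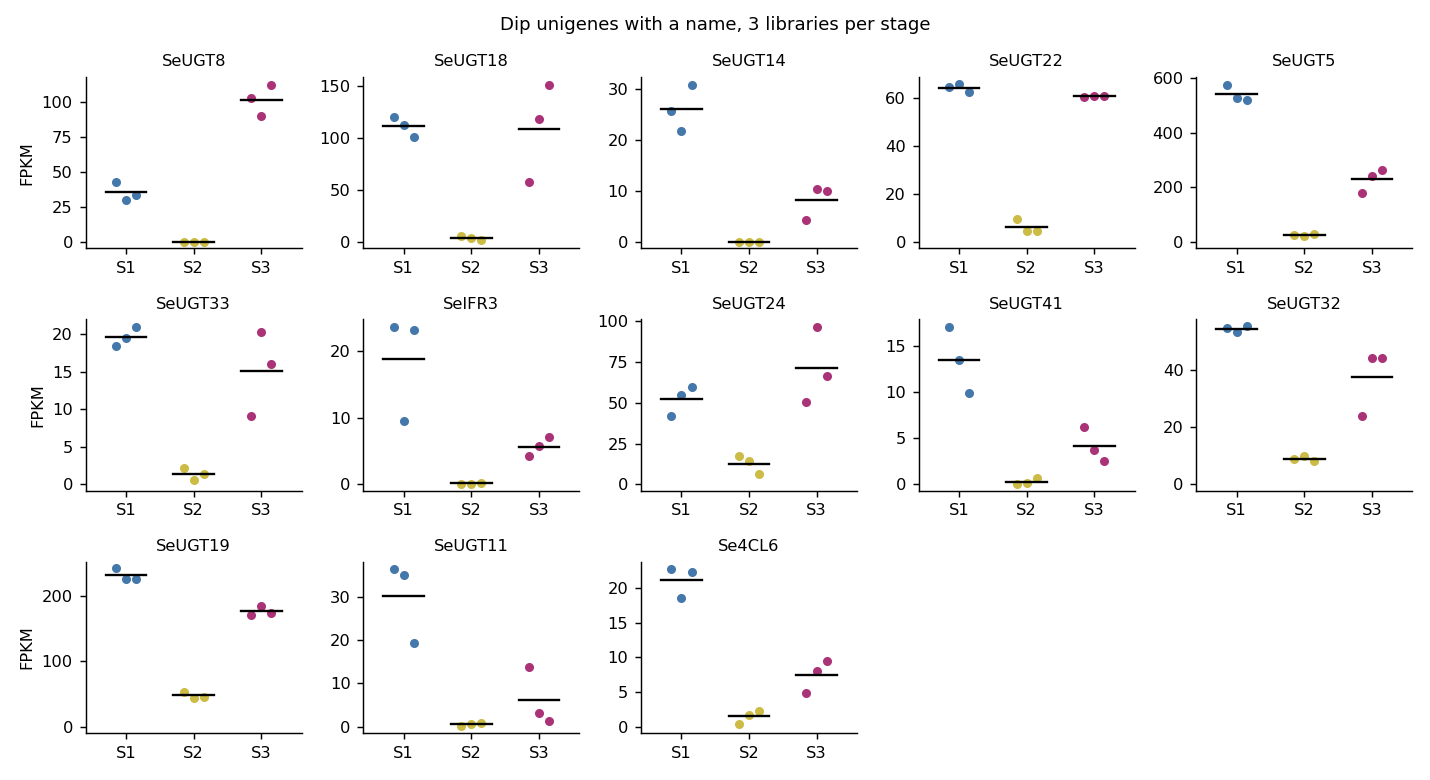
FPKM of the 13 dip unigenes with a name (vertical axis, from 0, scaled for each panel) in the S1, S2 and S3 libraries (horizontal axis). Points are the 3 libraries of a stage and bars are their mean. S2 is lowest in every panel by the way the unigenes were chosen. In S3 the level of SeUGT8 is above harvest and that of SeUGT22 is about at harvest. Those of SeUGT14, SeUGT5, SeUGT19, SeUGT32, SeUGT41, SeUGT11, SeIFR3 and Se4CL6 are below it. The S1 and S3 libraries of SeUGT18, SeUGT33 and SeUGT24 overlap.

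The difference of S3 minus S1 is the sum of both steps that the rule ranked, so it is drawn from the values that chose the dip unigenes, and its sign says which step was the smaller. The limma calls in it, made over all 30201 tested unigenes, therefore describe the dip unigenes and are given without p. Of the 200 dip unigenes, 59 were higher in S3 than in S1, where 22.1% of all tested unigenes were higher, and 19 were lower, where 25.4% were. The remaining 122 were not called in either direction. The median difference of S3 minus S1 was 0.51 on the log2 scale for the dip unigenes and -0.05 for all tested. Every S3 library lay above every S1 library in 54 dip unigenes, against 24.8% of all tested, and below in 21, against 28.1%.

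These counts moved with S1 replicate 1. Without that library 102 dip unigenes were higher in S3 than in S1, 58 of them among the 59, and 17 were lower, while 23.4% and 28.1% of all tested unigenes were higher and lower. The median difference became 0.99, against -0.06 for all tested. In the 187 without a name 58 were higher and 12 lower with all libraries, and 101 and 10 without S1 replicate 1. For the 13 with a name 1 was higher, 7 were lower and 5 were not called under both, with a median of -0.58 with all libraries. Whether the dip unigenes with and without a name differ in this was not tested.

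**Figure D4:**
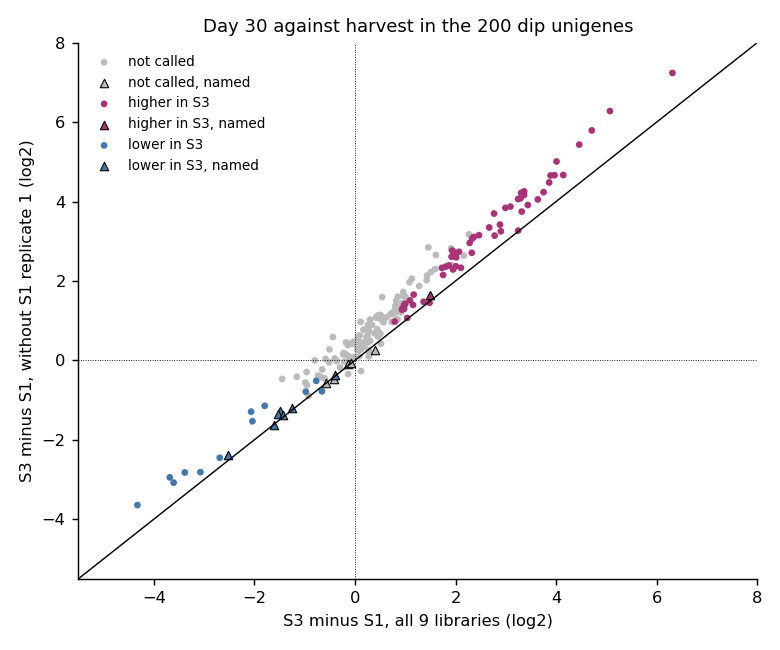
Difference of S3 minus S1 on the log2(FPKM + 1) scale in the 200 dip unigenes, with all 9 libraries (horizontal axis) and without S1 replicate 1 (vertical axis). Colours give the limma call with all libraries and triangles mark the 13 with a name. Most points lie above the diagonal, where leaving out S1 replicate 1 raises the difference, and the median goes from 0.51 to 0.99.

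The largest excess of S3 over S1 among called dip unigenes was in 3 without a name. TRINITY_DN2566_c0_g2 had 12.3, 0.08 and 2.50 FPKM in S1, 0, 0.04 and 0 in S2, and 343, 329 and 222 in S3. TRINITY_DN1112_c1_g3 had 137, 1.74 and 44.7 FPKM in S1, 0.24, 0.62 and 0.38 in S2, and 566, 1060.3 and 1089 in S3. TRINITY_DN3207_c0_g3 had 49.4, 1.53 and 10.1 FPKM in S1, 0.43, 0.67 and 0.51 in S2, and 266, 293 and 322 in S3. Here the S1 libraries disagreed, with replicate 1 highest and replicate 2 close to S2, so the fall to S2 rests largely on replicates 1 and 3. By limma the differences of S3 minus S1 were 6.31 (standard error 0.74), 5.07 (standard error 1.18) and 4.71 (standard error 0.86), and every S3 library was above every S1 library in each.

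At the opposite end, 3 unigenes without a name rose after day 15 but stayed far under their level at harvest. TRINITY_DN31909_c0_g1 had 922, 191 and 259 FPKM in S1, 9.89, 2.76 and 3.96 in S2, and 11.2, 33.6 and 12.6 in S3. TRINITY_DN2751_c0_g2 had 232, 40.7 and 60.1 FPKM in S1, 0.36, 0.45 and 0.43 in S2, and 5.92, 3.29 and 8.45 in S3. TRINITY_DN14399_c0_g1 had 318, 94.5 and 118 FPKM in S1, 2.27, 4.16 and 1.46 in S2, and 8.20, 13.3 and 14.3 in S3. S1 replicate 1 was again the highest, and S1 replicates 2 and 3 were still above every S3 library. The limma differences were -4.33 (standard error 0.66), -3.68 (standard error 0.57) and -3.61 (standard error 0.46).

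In the deepest dips without a name, the call depended on S1 replicate 1. The difference of S3 minus S1 was 0.46 for TRINITY_DN765_c0_g1 (limma, standard error 0.55) and was not called, and it was 1.13 and called without that library. For TRINITY_DN4078_c0_g1 it was 1.09 (limma, standard error 0.62) and not called, against 1.97 and called without it. Among the 3 most abundant, TRINITY_DN1523_c0_g1 and TRINITY_DN10383_c0_g1 were higher in S3 by 2.32 and 2.36 (limma, standard errors 0.34 and 0.56). TRINITY_DN28426_c0_g1 was higher by 3.25 (limma, standard error 1.12), a call that was lost when any library but S3 replicate 1 was left out.

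The dip unigenes with the smallest differences of S3 from S1 were 3 without a name. TRINITY_DN4499_c0_g2 averaged 30.9 ± 16.4, 3.25 ± 0.38 and 28.9 ± 7.01 FPKM in S1, S2 and S3 (SD, n = 3). TRINITY_DN15291_c0_g1 averaged 33.3 ± 22.5, 3.55 ± 0.59 and 30.6 ± 13.6 FPKM (SD, n = 3). TRINITY_DN2563_c0_g1 averaged 58.2 ± 15.5, 18.0 ± 2.15 and 59.5 ± 9.18 FPKM (SD, n = 3). Their differences of S3 minus S1 were 0.01, -0.03 and 0.05 on the log2 scale (limma, standard errors 0.35, 0.45 and 0.20). The S1 and S3 libraries overlapped in each.

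Among the named unigenes SeUGT8 was the one called higher in S3, by 1.50 (limma, standard error 0.15). The 7 called lower were SeUGT11, SeUGT14, SeUGT41, SeIFR3, Se4CL6, SeUGT5 and SeUGT19. SeUGT11 had the largest difference, -2.53 (limma, standard error 0.59), and SeUGT19 the smallest, -0.39 (limma, standard error 0.10). SeUGT14 and SeUGT5 were lower by differences of -1.62 and -1.25 (limma, standard errors 0.29 and 0.17). For SeIFR3, Se4CL6 and SeUGT41 the differences were -1.49, -1.44 and -1.52 (limma, standard errors 0.33, 0.33 and 0.32). With a pseudocount of 0.01 the calls of Se4CL6 and SeUGT41 were lost. That of SeUGT19 was lost at a minimum absolute log2 fold of 1 and at an adjusted p under 0.01. Not called were SeUGT18, SeUGT22, SeUGT33, SeUGT24 and SeUGT32, with differences of -0.14, -0.08, -0.42, 0.40 and -0.58.

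Trinity groups related transcripts into clusters, whose unigenes share sequence and may be copies, alleles or fragments of 1 gene. Reads may be split between near-identical unigenes of a cluster, so their values are uncertain. The 200 dip unigenes came from 192 clusters, 8 of which held 2 each, and 81 were the sole unigene of their cluster. The other unigenes of these clusters numbered 219, of which 141 were tested. In 30 of the 141 (21.3%) every S2 library was the lowest, where this holds for 9.69% of all tested unigenes, and 14 were called lower in S2 than in S1 and higher in S3 than in S2, where 3.86% of all tested were. The 14 became 6, 7 and 7 without S2 replicates 1, 2 and 3. Their median change was -0.30 from S1 to S2 and 0.59 from S2 to S3, so most of them did not dip as the dip unigenes did.

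Among the 8 clusters with a pair of dip unigenes, the 2 with the best-ranked unigene are described, a choice made after the tie was seen. In cluster TRINITY_DN7248_c0, unigene g1 had 66.8, 49.1 and 19.3 FPKM in S1, 1.24, 3.76 and 0.46 in S2, and 202, 209 and 104 in S3. Unigene g2 had 21.7, 1.83 and 6.51 FPKM in S1, 0.58, 0 and 0 in S2, and 159, 161 and 59.4 in S3. The pair shared the order of the stages and the lower S3 replicate 3, at different levels. In cluster TRINITY_DN6957_c0, unigene g11 had 101, 9.38 and 20.5 FPKM in S1, 1.26, 1.27 and 1.24 in S2, and 30.8, 71.4 and 104 in S3. Unigene g5 had 104, 71.2 and 70.8 FPKM in S1, 15.9, 14.5 and 13.2 in S2, and 39.6, 85.8 and 98.8 in S3. In both, S3 replicate 1 was the lowest of its stage, and g11 had the wider spread in S1. Unigene g1 of the same cluster, named after its values were seen, fell and did not return, with 5.38, 10.7 and 6.08 FPKM in S1, 1.01, 0.91 and 1.02 in S2, and 0.99, 0.81 and 0.55 in S3.

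Transcription factors were kept out by the rule, and 2 of the 137 unigenes on the study's list of them would have been within the limit. FSG0127540 (TRINITY_DN8188_c0_g6) had 5.4, 5.73 and 5.93 FPKM in S1, 0.37, 0.08 and 0.17 in S2, and 4.84, 11.1 and 12.4 in S3. FSG0242350 (TRINITY_DN4542_c1_g1) had 17.4, 20.0 and 25.1 FPKM in S1, 4.21, 6.75 and 5.71 in S2, and 33.0, 63.1 and 68.7 in S3. In both, S1 replicate 1 was the lowest of the S1 libraries, unlike in most dip unigenes. Of the 137 factors 12 had the lowest libraries in S2, where 9.69% of all tested unigenes and 5.50% of all unigenes did. The other 10 had smaller steps, the nearest being FSG0198910 (TRINITY_DN1586_c0_g1) with 1.41. The list was drawn up by the study from these same libraries.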

How the data were processed

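RNA of 9 chayote fruit samples, 3 per stage, was sequenced. The authors deposited FPKM values, 1 file per library, rounded to 2 decimals. The file headers name no unit, and FPKM is taken from the wording of the paper. Reads were filtered with fastp. For the mapper, counting tool, assembly settings and any shared sequencing run of the stages, details were not given in the sources used here. Different RNA extraction kits stand in the labels and in the methods. In the file of S1 replicate 1, 8 columns without a name were not used. FPKM values depend on the total of each library, so a few abundant unigenes can shift the rest.

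The dip unigenes and the lists were chosen with earlier results of these data known. R 4.3.3 with limma 3.58.1 fitted log2(FPKM + 1) of all 9 libraries with stage as the factor, by lmFit and a trended eBayes. The 30201 tested unigenes had 3 or more libraries at 1 FPKM or above. Folds are later minus earlier stage on that scale, which understates the change of low unigenes. Adjusted p values are Benjamini-Hochberg over all tested unigenes, with a threshold of 0.05, and no minimum fold. The p values measure the spread between these samples alone. Depth was estimated from steps of 1 read at 0.25 to 2.0 FPKM. Tables used Python 3.11.15 with numpy 2.4.6 and pandas 2.3.3, figures matplotlib 3.10.9. The fit was tested on simulated data.

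Unigenes named in the text are the 4 with the deepest dips, the 3 most abundant, the 3 called highest and the 3 called lowest in S3 against S1, the 3 with the smallest difference of S3 from S1 at a mean of at least 10 FPKM in S1, those next to the limit, the 2 clusters with most dip unigenes, every one with a name, and up to 8 from the excluded lists, of which 3 are given. Names are those of the study's list of structural genes with values. Its list grouped by positive and negative regulation uses some of the same names for other unigenes. No other gene list could be formed without annotation. Alternatives were median-of-ratios scaling, quantile normalization, pseudocounts of 0.1 and 0.01, no filter, a filter at 5 FPKM, no trend, a replicate block, fits on the 6 libraries of a pair of stages, leaving out single libraries, an absolute log2 fold of at least 1, an adjusted p under 0.01, and for the selection also stage medians and no limit on the mean.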

Additional observations from a re-analysis of the deposited data

How the results depend on the processing

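The 59 dip unigenes higher in S3 than in S1 became 39 at an adjusted p under 0.01 and 43 to 102 with a library left out, 102 being without S1 replicate 1. The 19 lower ones became 16 to 23 with a library left out, and the median of S3 minus S1 went from 0.51 to between 0.34 and 0.99. The 170 with calls in both steps became 100 at an adjusted p under 0.01 and 113 to 172 with a library left out. Of the 14 other unigenes of their clusters with both calls, 9 were left with the filter at 5 FPKM, 5 with a minimum absolute log2 fold of 1, 4 at an adjusted p under 0.01, and 6 to 14 with a library left out. Applied again, the rule took 111 of the 200 with a pseudocount of 0.1, 60 with 0.01, and 150 to 190 with a library left out. Unigenes of the study's lists that met the condition on the libraries and reached the smallest dip selected numbered 15. They were 8 with a pseudocount of 0.01, and 12 to 20 with a library left out. These counts include transcription factors, which the rule keeps out. Over all tested unigenes, a minimum absolute log2 fold of 1 left 3782 of 6677 higher and 4880 of 7669 lower in S3 than in S1, 8332 of 14053 between S2 and S3, 2861 of 5406 between S1 and S2, and 429 of the 1167 with both calls. An adjusted p under 0.01 left 2244 of the 5406 and 371 of the 1167. With a library left out the 5406 became 2789 to 6181, the 1167 became 502 to 1188, and the S2 libraries gave the lowest values. No pairing of fruits by replicate number is described. Deviations of same-numbered libraries had r of -0.14 to 0.04, and those of differently numbered libraries -0.10 to 0.12. A low r cannot show that fruits were not paired. With the replicate block, S3 exceeded S1 in 61 dip unigenes and was below it in 19, and 153 had both calls. The cause of these changes was not tested. For the unigenes named in the text, 559 of 579 alternative tests of S3 against S1 kept the call or its absence, 15 lost the call and 5 gained it. None of the called ones changed sign. Sign was not followed in those without a call, and TRINITY_DN15291_c0_g1 went from -0.03 to 0.47 without S1 replicate 1. Depth limits unigenes under 1 FPKM in S2, for which the dip is a lower level without a known error.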
